A study of Mus musculus with 24 samples.

Results

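Glycolysis and hypoxia-response genes were followed in 24 Illumina MouseRef-8 v2 arrays of mouse bone marrow-derived macrophages (BMDMs). The set holds 38 genes, taken as a list of glucose transporters, glycolytic enzymes, lactate and pyruvate genes, the transcription factor *Hif1a* with its oxygen sensors, hypoxia-induced genes and pentose phosphate enzymes, and a probe belonged to a member when the array annotation gave the symbol of that member. Of the 38 genes, 34 had such a probe, and *Gpi1*, *Eno1*, *G6pdx* and *Pgd* had none. A probe was tested if it was detected above the negative control beads (detection p under 0.05) on at least 3 of the 12 arrays of an experiment, which left 29 members among 8569 genes in the IKKβ experiment and 30 members among 9123 genes in the p38 experiment. The probes of *Pgk1*, *Slc16a1*, *Pdk2* and *Bnip3* were detected on 0 arrays of either experiment, with signals between 72.1 and 118, and *Adm* passed in the p38 experiment only.

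The arrays came from 2 experiments with 3 arrays in each of 4 groups. In the IKKβ experiment, IKKβ-deficient BMDMs of *Ikkβ* F/F:*Mx1-Cre* mice were set against wt BMDMs of *Ikkβ* F/F mice, which carry the floxed alleles without Cre, after 4 h of 100 ng/ml LPS and at 0 h. In the p38 experiment, BMDMs of C57BL/6 mice given 10 µM of the p38 inhibitor SB202190 for 2 h were set against DMSO control BMDMs, after 4 h of 100 ng/ml LPS and at 0 h. All mice were on the C57BL/6 background and 8 to 10 weeks old, and marrow was grown for 7 days in medium with 20% L929-conditioned medium. *Mx1-Cre* is driven by an interferon-responsive promoter and is not limited to macrophages. The labels call the p38 controls wt and the cells RAW264.7, a macrophage line, where the methods of the study describe DMSO controls and BMDMs, and the methods were followed. The labels do not state whether replicates came from different mice or dishes. The p-values below thus reflect the spread among these arrays, which may be technical.

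Glycolysis splits glucose to pyruvate and yields ATP without oxygen. Glucose enters through transporters of the SLC2 family and is trapped by hexokinases, phosphofructokinase commits it to the pathway, and lactate dehydrogenase with the monocarboxylate transporters carries the product out as lactate. HIF-1α, the protein of *Hif1a*, is hydroxylated by the EGLN oxygenases when oxygen is present and then destroyed through VHL. In low oxygen it pairs with ARNT and binds the short DNA core ACGTG or GCGTG in hypoxia response elements of glycolytic and angiogenic genes. Macrophages that sense LPS through TLR4 are known to raise both *Hif1a* and glycolysis in normal oxygen, and the pentose phosphate pathway supplies them with NADPH.

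The promoters below belong to members on which the results turn, namely the 8 called in the p38 experiment, *Slc2a1*, *Hk2*, *Hk3*, *Pfkfb4*, *Eno2*, *Hif1a*, *Vegfa* and *Taldo1*. They are the 250 bases before a transcript start listed for each gene, which for *Hk3*, *Pfkfb4* and *Hif1a* lies inside the annotated span of the gene, 5′ to 3′ on the strand of the gene, from RefSeq on GRCm38.p6. The windows are chr4:119108495-119108744 (+ strand) for *Slc2a1*, chr6:82774455-82774704 (- strand) for *Hk2*, chr13:55021386-55021635 (- strand) for *Hk3*, chr9:108991652-108991901 (+ strand) for *Pfkfb4*, chr6:124769674-124769923 (- strand) for *Eno2*, chr12:73907617-73907866 (+ strand) for *Hif1a*, chr17:46032378-46032627 (- strand) for the first of 2 *Vegfa* windows and chr7:141391910-141392159 (+ strand) for *Taldo1*. Capitals mark ACGTG or GCGTG on either strand (on the other strand CACGT or CACGC) and, in *Vegfa* alone, a match to the κB consensus, the site of NF-κB.
Slc2a1: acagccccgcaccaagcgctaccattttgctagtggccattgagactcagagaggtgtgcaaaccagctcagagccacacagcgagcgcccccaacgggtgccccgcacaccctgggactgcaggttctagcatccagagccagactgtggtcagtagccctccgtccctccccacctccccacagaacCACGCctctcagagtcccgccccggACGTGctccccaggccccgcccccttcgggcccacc
Hk2: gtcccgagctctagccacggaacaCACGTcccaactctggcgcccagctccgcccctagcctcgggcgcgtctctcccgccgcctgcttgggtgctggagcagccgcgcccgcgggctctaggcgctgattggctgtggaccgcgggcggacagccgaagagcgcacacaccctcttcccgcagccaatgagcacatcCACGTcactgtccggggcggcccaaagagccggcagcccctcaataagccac
Hk3: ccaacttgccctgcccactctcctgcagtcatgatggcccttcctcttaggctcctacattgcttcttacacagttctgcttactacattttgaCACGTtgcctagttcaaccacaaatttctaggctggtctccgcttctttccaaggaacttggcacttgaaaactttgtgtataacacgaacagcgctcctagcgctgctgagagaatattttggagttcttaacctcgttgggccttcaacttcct
Pfkfb4: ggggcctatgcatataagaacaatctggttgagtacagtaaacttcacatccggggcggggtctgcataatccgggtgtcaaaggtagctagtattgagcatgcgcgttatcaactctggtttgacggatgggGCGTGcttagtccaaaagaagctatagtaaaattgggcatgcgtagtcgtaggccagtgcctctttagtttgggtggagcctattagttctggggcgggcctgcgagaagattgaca
Eno2: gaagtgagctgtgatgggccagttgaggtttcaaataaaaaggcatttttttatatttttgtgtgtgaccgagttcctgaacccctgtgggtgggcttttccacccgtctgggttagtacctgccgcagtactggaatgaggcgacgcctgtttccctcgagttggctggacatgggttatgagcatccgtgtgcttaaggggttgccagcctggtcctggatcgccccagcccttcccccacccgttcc
Hif1a: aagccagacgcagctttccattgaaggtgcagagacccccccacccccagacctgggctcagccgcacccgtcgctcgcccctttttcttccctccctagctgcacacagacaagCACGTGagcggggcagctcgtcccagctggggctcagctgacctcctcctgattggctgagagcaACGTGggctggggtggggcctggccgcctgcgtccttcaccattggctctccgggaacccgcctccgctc
Vegfa: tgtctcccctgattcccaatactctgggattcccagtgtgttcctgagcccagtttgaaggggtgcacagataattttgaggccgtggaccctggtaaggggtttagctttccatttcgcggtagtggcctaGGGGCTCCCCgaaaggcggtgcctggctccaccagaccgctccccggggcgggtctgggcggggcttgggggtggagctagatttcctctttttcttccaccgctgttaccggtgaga
Taldo1: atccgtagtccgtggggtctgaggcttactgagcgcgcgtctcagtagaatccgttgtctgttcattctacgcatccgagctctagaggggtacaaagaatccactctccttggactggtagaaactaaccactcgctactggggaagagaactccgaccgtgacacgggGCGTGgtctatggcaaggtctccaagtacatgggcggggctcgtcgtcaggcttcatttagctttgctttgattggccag

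*Slc2a1* held 2 matches to the hypoxia core, at -61 and -36 from the start, and *Hk2* held 2, at -226 and -52. *Hif1a* held 3, at -135, -134 and -70, of which the first and the next overlap in the palindrome CACGTG. *Hk3*, *Pfkfb4* and *Taldo1* held 1 each, at -156, -117 and -80. *Eno2* held none in this window. The *Vegfa* window held none either and had the κB match at -118, while its other annotated start, chr17:46025164-46025413, had 2 core matches. Among the 52 windows of the 37 members with a RefSeq promoter entry, 41 (78.8%) held at least 1 core match, against 12679 (38.6%) of 32851 windows of all genes. The κB consensus was matched in 4 member windows (7.69%), against 7.25% of all windows. Such a match is a run of letters and not a measured site.

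Some facts of the arrays touch every result below. *Ikbkb*, the targeted gene, had a signal of 217 ± 20.8 in IKKβ-deficient and 686 ± 96.5 in wt BMDMs at 4 h, and 191 ± 6.27 in IKKβ-deficient and 403 ± 74.8 in wt BMDMs at 0 h (SD, n = 3), so the genotypes did not overlap. In the p38 experiment the deposited columns disagree. Of the 12 normalized columns 8 had the probe order of an intensity column, 6 of these from the same group and 1 under the same replicate too. The other 4, all of SB202190, had no counterpart (highest rank correlation 0.938). Within DMSO, the columns of replicates 1 and 2 had each other's order at both times. The 2 that matched another group were SB202190 replicate 2 of 0 h, which had the order of the intensity column of DMSO replicate 3 of 4 h, and DMSO replicate 3 of 4 h, which had that of SB202190 replicate 3 of 0 h. The normalized columns were used with their own labels. If the intensity labels are right, at least these 2 arrays stand in the wrong groups in every value below. All 3 SB202190 columns of 0 h were closest to the intensity column of DMSO replicate 3 of 4 h (0.934, 1.0 and 0.935). All 3 of 4 h were closest to that of SB202190 replicate 3 of 4 h (0.938, 1.0 and 0.937). No SB202190 column had the order of its own intensity column, so the doubt covers every SB202190 comparison. The SB202190 arrays lay closer together than the others, with a median log2 SD over genes of 0.082 at 4 h and 0.11 at 0 h, where DMSO arrays had 0.283 and 0.309. The model gives all 4 groups 1 common spread. In the DMSO group, the LPS changes of replicates 1 and 3 correlated at 0.871 across 9123 genes and those of replicate 2 with them at 0.325 and 0.302. All 7 macrophage markers were detected in both experiments and 0 of 7 T and NK cell markers passed the filter. Of 9 neutrophil markers 7 passed in the IKKβ experiment and 4 in the p38 experiment. In each experiment 3 of 7 fibroblast, 2 of 7 dendritic cell, 1 of 5 B cell and 1 of 4 erythroid markers passed. Their part in the results was not tested.

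With SB202190, LPS raised the messages of the glucose transporter *Slc2a1*, the hexokinase *Hk2*, the enolase *Eno2* and *Hif1a*, and lowered *Vegfa*, *Pfkfb4* and *Taldo1*. In all, 7 of 30 members changed between 4 h and 0 h of LPS with SB202190, 4 up and 3 down, at an adjusted p under 0.05 by limma, against 10.1% of the 9123 genes (5.29% up and 4.81% down). In the DMSO control 2 members changed, *Slc2a1* and *Hif1a*, both up, against 6.49% of all genes (2.86% up). The median log2 change of the 30 members was 0.03 with SB202190 and 0.05 with DMSO, beside -0.03 and -0.04 over all genes tested. With SB202190, called members moved in both directions, and only *Eno2*, *Hif1a* and *Vegfa* kept the call without any 1 SB202190 array.

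**Figure D1:**
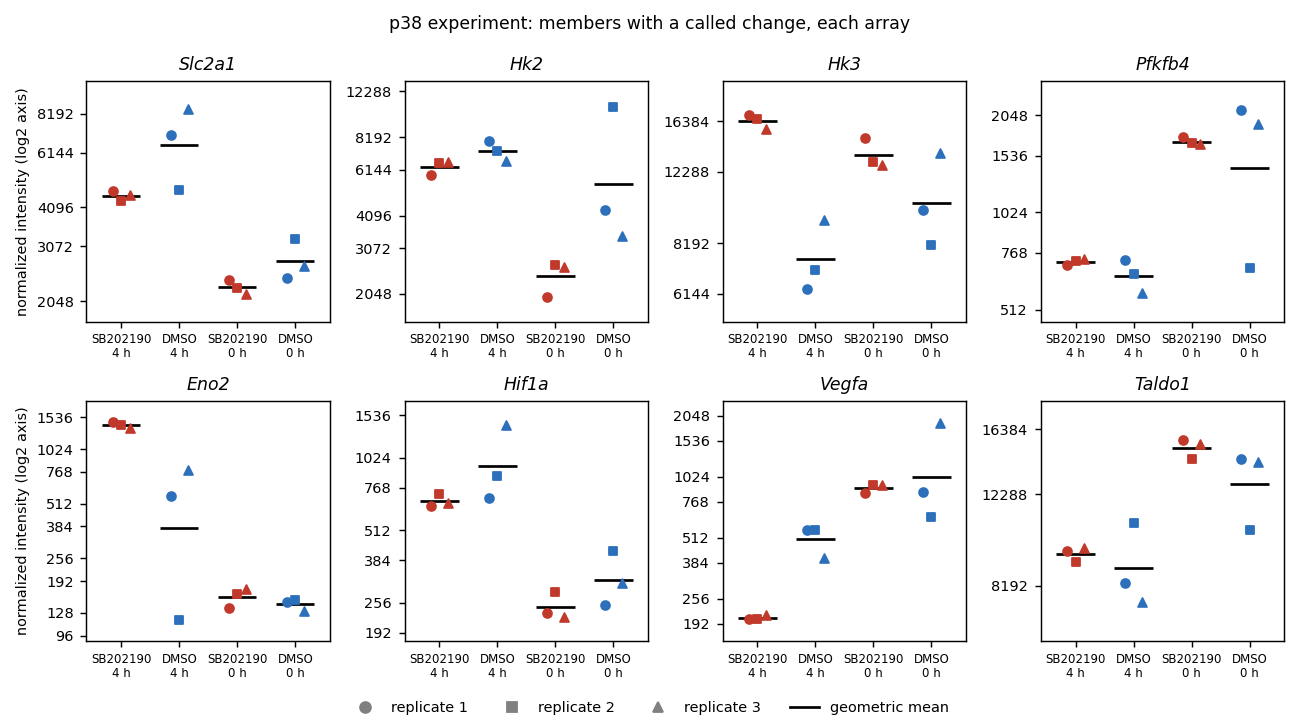
Normalized intensity (log2 axis) of the 8 members with a called change in the p38 experiment, for each array at 4 h and 0 h of LPS with SB202190 (red) or DMSO (blue). Symbols give the replicate and bars the geometric mean of 3 arrays. The SB202190 arrays sit close together, and *Eno2* in DMSO at 4 h is split, with replicate 2 at 117 and the others at 569 and 791.

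*Slc2a1* encodes GLUT1, the main glucose carrier of activated macrophages. With SB202190 its signal was 4611, 4279 and 4482 at 4 h, against 2389, 2265 and 2164 at 0 h. The DMSO arrays were at 7004, 4667 and 8447 at 4 h, against 2438, 3239.6 and 2649.7 at 0 h. The times did not overlap in either group. The log2 change was 0.97 (SE 0.197, adjusted p = 0.0145 by limma) with SB202190 and 1.24 (SE 0.197, adjusted p = 0.00938) with DMSO. With SB202190 the call was lost in 8 of 15 omissions of 1 array or replicate (adjusted p-values by limma up to 0.234). With DMSO it was lost in 2 of 15 (up to 0.396). The equal SE comes from the common spread of the 4 groups, and a fit of the 2 DMSO groups alone called 0 members (0% of all genes). At 4 h each SB202190 array lay below each DMSO array, at a log2 difference of -0.55 (SE 0.197, adjusted p = 0.159). *Slc2a6*, a transporter of lysosomes known in macrophages as an LPS-induced gene, had log2 changes of 1.45 with SB202190 (adjusted p = 0.0708) and 1.45 with DMSO (adjusted p = 0.0842). Its DMSO arrays at 0 h spread over 4663, 26831 and 14548.

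Of the hexokinases, *Hk2*, the inducible form, was 5838, 6522 and 6558 at 4 h with SB202190, against 2002, 2639.6 and 2599 at 0 h. That was a rise of 1.40 (SE 0.335, adjusted p = 0.0274 by limma). *Hk2* lost this call in 8 of 15 omissions of 1 array or replicate, with adjusted p-values by limma up to 0.309. In DMSO its signal was 7888, 7249 and 6629 at 4 h, against 4314, 10731 and 3404 at 0 h. The highest DMSO array was thus 1 of 0 h, and the log2 change there was 0.42 (SE 0.335, adjusted p = 0.487). *Hk1*, the housekeeping form, had a log2 change of 1.14 with SB202190 (adjusted p = 0.0759) and 0.41 with DMSO (adjusted p = 0.546).

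*Hk3*, the hexokinase of myeloid cells, was the member that differed between SB202190 and DMSO. At 4 h it was 17001, 16596 and 15648 with SB202190, against 6328, 7046 and 9315 with DMSO, with no overlap. The log2 difference was 1.14 (SE 0.198, adjusted p = 0.0166 by limma). At 0 h it was 14876, 13016 and 12790.5 with SB202190, against 9899, 8108 and 13679 with DMSO, a log2 difference of 0.39 (SE 0.198, adjusted p = 0.517), and these groups overlapped. It was 1 of 30 members called at 4 h, against 3.27% of all genes (2.23% higher with SB202190), and 0 of 30 were called at 0 h, against 0% of all genes (4 members among 897 genes at an unadjusted p under 0.05 by limma). The call at 4 h was lost without DMSO replicate 1 of 4 h (adjusted p = 0.0542), without SB202190 replicate 1 (0.0903), 2 (0.0846) or 3 (0.0768) of 4 h, or without the whole of replicate 1 (0.288).

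Among the phosphofructokinases, *Pfkfb4* makes and breaks down a regulatory fructose bisphosphate. With SB202190 it was 703, 722 and 736 at 4 h, against 1756, 1682 and 1671 at 0 h. It fell by 1.24 on the log2 scale (SE 0.336, adjusted p = 0.0422 by limma). This call was lost in 9 of 15 omissions of 1 array or replicate, with adjusted p-values by limma up to 0.309. DMSO arrays gave 730.2, 662 and 576 at 4 h, against 2125, 689 and 1924 at 0 h. DMSO replicate 2 of 0 h lay with the 4 h arrays, and the log2 change of -1.11 had an adjusted p = 0.0724. Without that array the change was -1.63 (adjusted p = 1.33e-05). Over all omissions of 1 array or replicate it ran from -1.64 to -0.80, with adjusted p-values by limma up to 0.657. *Pfkfb3*, the related LPS- and hypoxia-inducible isozyme, stayed near the detection limit, with signals of 96.7, 109 and 142 at 4 h and 125, 118 and 128 at 0 h with SB202190. Its DMSO arrays were at 166, 157 and 120.4 at 4 h and 147, 152 and 126 at 0 h, and all groups overlapped. *Pfkl*, a subunit of phosphofructokinase itself, was 3883, 1133 and 2372 in DMSO at 4 h, against 1358, 1339 and 1063 at 0 h. The log2 change of 0.81 (adjusted p = 0.165 by limma) became 1.29 (adjusted p = 0.0034) without DMSO replicate 2 of 4 h. Over all omissions of 1 array or replicate it ran from 0.40 to 1.34, with adjusted p-values up to 0.75.

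*Eno2*, a neuronal enolase gene that is also a hypoxia target, had the largest LPS change among the members tested with SB202190. Its signal was 1453, 1387 and 1346 at 4 h, against 137, 163 and 173 at 0 h, a log2 change of 3.15 (SE 0.532, adjusted p = 0.00792 by limma). With DMSO it was 569, 117 and 791 at 4 h, against 148, 150.2 and 132 at 0 h. Replicate 2 thus lay below all 0 h arrays, and the log2 change of 1.39 (SE 0.532) had an adjusted p = 0.136. Without that array it was 2.23 (adjusted p = 0.000107). Over all omissions of 1 array or replicate it ran from 0.79 to 2.27, with adjusted p-values by limma up to 0.756. At 4 h every SB202190 array was above every DMSO array, at a log2 difference of 1.90 (SE 0.532, adjusted p = 0.0808 by limma). It shrank to 1.06 without DMSO replicate 2 of 4 h (adjusted p = 0.0102). Across the 15 omissions of 1 array or replicate this difference ran from 1.06 to 2.46, and 4 of them gained the call. The adjusted p-values by limma ran up to 0.386.

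The other enzymes of lower glycolysis moved less and none was called in this fit. *Aldoa* had log2 changes with LPS of -0.61 with SB202190 (adjusted p = 0.0517) and -0.11 with DMSO, and *Gapdh* of -0.38 and -0.32. *Tpi1*, *Pgam1* and *Aldoc* were between -0.38 and -0.18 with SB202190 and between -0.24 and -0.10 with DMSO. *Aldoc* in DMSO replicate 2 stood apart, at 1465 at 4 h and 1665 at 0 h, where the other DMSO arrays lay between 274 and 380.2. *Ldha*, which turns pyruvate into lactate, was 18239, 16532 and 17196 at 4 h with SB202190, against 27059.9, 23272 and 21406 at 0 h, a log2 change of -0.46 (SE 0.132, adjusted p = 0.0518 by limma). In DMSO cells *Ldha* was 17637, 15889 and 15889 at 4 h, against 14388, 16209.5 and 18239 at 0 h, and the log2 change was 0.02. At 0 h all SB202190 arrays lay above all DMSO arrays, at a log2 difference of 0.55 (adjusted p = 0.333).

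*Slc16a3*, the lactate exporter MCT4, was 144, 151 and 132 at 4 h and 153, 155 and 125 at 0 h with SB202190. Its DMSO arrays read 281, 129.9 and 166 at 4 h and 129, 123 and 148 at 0 h. All groups overlapped, and the log2 changes were -0.02 with SB202190 and 0.46 with DMSO (adjusted p = 0.264 by limma). Another *Slc16a3* probe, the one that stood for the gene in the IKKβ experiment, passed here too. It was detected on 11 arrays and had log2 changes of 0.105 with SB202190 and -0.03 with DMSO. The pyruvate dehydrogenase kinases *Pdk1* and *Pdk3*, which keep pyruvate out of mitochondria, had log2 changes of 0.03 and -0.30 with SB202190 and of -0.21 and 0.04 with DMSO.

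*Hif1a* was called in both groups. With SB202190 it was 646, 727 and 666 at 4 h, against 232, 283 and 223 at 0 h, a log2 change of 1.47 (SE 0.253, adjusted p = 0.00864 by limma). DMSO arrays of *Hif1a* were at 694, 859 and 1403 at 4 h, against 252, 418 and 309 at 0 h, a log2 change of 1.56 (SE 0.253, adjusted p = 0.0102). This SE rests on the common spread of the 4 groups and not on the DMSO arrays alone. A fit of the 2 DMSO groups alone called 0 members (0% of all genes). Without the whole of replicate 1 or 3 the *Hif1a* call was lost with DMSO (adjusted p = 0.323 and 0.394 by limma). It was then lost with SB202190 too (0.177 and 0.128). The times did not overlap, and 2 of 3 DMSO arrays at 4 h lay above the highest SB202190 array. The difference at 4 h was -0.47 (SE 0.253, adjusted p = 0.321). Of the genes whose proteins bring HIF-1α down, *Vhl*, *Egln1* and *Egln3* had log2 changes between -0.16 and 0.10 with SB202190 and between -0.26 and 0.11 with DMSO, and none was called. *Egln1* and *Egln3* were close to the detection limit, with signals from 94.3 to 194.

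*Vegfa*, the angiogenic growth factor, moved against *Hif1a*. With SB202190 it was 203, 203 and 212 at 4 h, against 851, 935 and 929.8 at 0 h, and fell by 2.13 on the log2 scale (SE 0.312, adjusted p = 0.00573 by limma). With DMSO it was 561, 557 and 406 at 4 h, against 856, 647 and 1888 at 0 h, a log2 change of -1.01 (SE 0.312, adjusted p = 0.0766). The times did not overlap in either group. The DMSO change was -1.34 without DMSO replicate 2 of 0 h (adjusted p = 0.00513), -0.57 without DMSO replicate 3 of 0 h (0.117) and -0.41 without the whole of replicate 3 (0.58). At 4 h all SB202190 arrays lay below all DMSO arrays, at a log2 difference of -1.29 (SE 0.312, adjusted p = 0.0523). A further *Vegfa* probe that passed the filter had log2 changes with LPS of -1.15 with SB202190 and -0.67 with DMSO. Another probe of the gene was detected on 0 arrays.

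*Adm*, which encodes the vasodilator adrenomedullin, was detected on 4 of 12 arrays. It was 154, 136 and 142 at 4 h and 118, 103 and 103 at 0 h with SB202190, and 169, 99.5 and 289 at 4 h and 94.2, 104 and 102 at 0 h with DMSO. The SB202190 times did not overlap, whereas DMSO replicate 2 of 4 h lay among the 0 h arrays. The log2 changes were 0.42 (adjusted p = 0.42) and 0.76 (adjusted p = 0.136). *Ndrg1*, a hypoxia-induced gene, had log2 changes of 0.93 with SB202190 and 0.72 with DMSO, neither called, and its DMSO replicate 2 was high at both times, at 1481 and 1598. *P4ha1*, a collagen prolyl hydroxylase, was at 0.09 and 0.32.

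*Taldo1* encodes the transaldolase that links the pentose phosphate pathway back to glycolysis. With SB202190 it was 9539, 9100.0 and 9672 at 4 h, against 15609, 14388 and 15325 at 0 h. It fell by 0.68 on the log2 scale (SE 0.162, adjusted p = 0.0266 by limma). *Taldo1* lost this call in 8 of 15 omissions of 1 array or replicate, with adjusted p-values by limma up to 0.296. With DMSO it was 8284, 10827 and 7627 at 4 h, against 14336, 10490.4 and 14199 at 0 h. Replicate 2 overlapped between the times, and the log2 change of -0.55 had an adjusted p = 0.0686. The transketolase gene *Tkt* had log2 changes of -0.41 and -0.23.

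**Figure D2:**
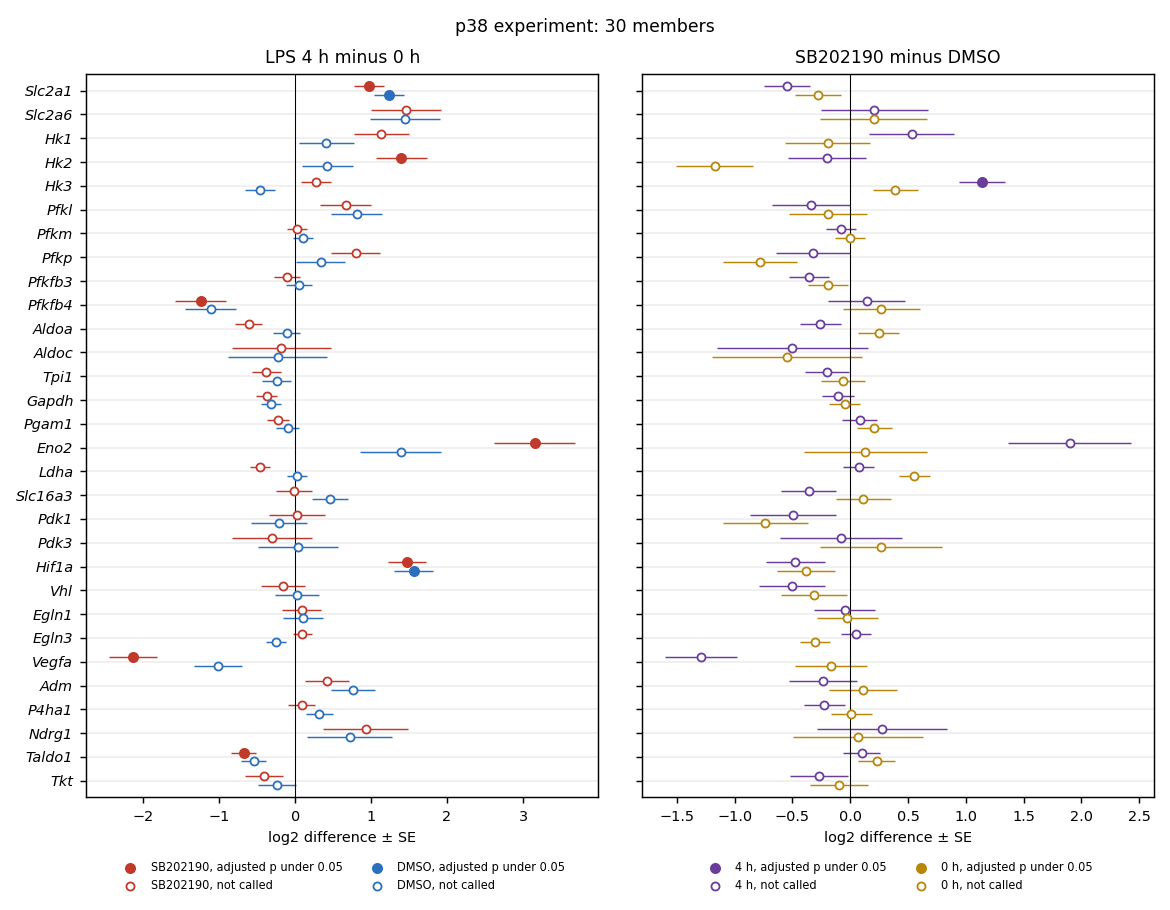
Log2 difference ± SE of the 30 members in the p38 experiment, for LPS at 4 h minus 0 h with SB202190 (red) and DMSO (blue) at left, and for SB202190 minus DMSO at 4 h (purple) and 0 h (gold) at right. Filled points passed an adjusted p under 0.05, namely 7 members for LPS with SB202190, 2 for LPS with DMSO, *Hk3* for SB202190 at 4 h and none at 0 h.

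The LPS response with SB202190 was tested against that with DMSO as an interaction, and 0 of 30 members were called, against 0.0219% of all genes (510 genes, and 4 members, at an unadjusted p under 0.05). The smallest adjusted p of a member was 0.796, for *Hk3* at a log2 difference of the changes of 0.75 (SE 0.28). For *Eno2* it was 1.76 (SE 0.752), for *Vegfa* -1.12 (SE 0.442) and for *Hk2* 0.97 (SE 0.474). So the members called with SB202190 alone are not shown to differ from the DMSO control in their LPS response. The median log2 difference of the members between SB202190 and DMSO was -0.20 at 4 h, with 10 above and 20 below 0, and -0.04 at 0 h, beside 0.01 at both times over all genes. At 4 h the median of the members was -0.05 without DMSO replicate 1 of 4 h and -0.07 without the whole of replicate 1.

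The counts of called members moved with the arrays in the fit, and so did the share of all genes called. Without any 1 of the 6 SB202190 arrays, 3 members, *Eno2*, *Hif1a* and *Vegfa*, were called for LPS with SB202190, beside 2.09% to 2.97% of all genes. Without replicate 1 the count was 0 (0% of all genes), without replicate 3 it was 1, *Vegfa* (0.0329%), and without DMSO replicate 2 of 0 h it was 13 (19.6%). For LPS with DMSO, 0 members were called without replicate 1 or 3 (0% of all genes each) and 11 without replicate 2 (27.3%). Without single DMSO arrays of replicate 2, the count was 6 without that of 4 h (13.8%) and 10 without that of 0 h (27%). In a fit of the 2 groups compared, 20 members were called for LPS with SB202190 (50.6% of all genes) and 0 for LPS with DMSO (0%). No called gene changed direction in these settings.

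In the IKKβ experiment fewer genes passed and no member was called in the fit of 4 groups. For LPS in IKKβ-deficient BMDMs 0 of 29 members passed, against 0% of the 8569 genes, and for LPS in wt BMDMs 0 passed, against 0.0467%. At an unadjusted p under 0.05 these were 2 and 2 members, *Slc2a1* and *Pfkl* each time, among 571 and 628 genes. Arrays of the same replicate number lay on the same BeadChip by the labels and deviated together. With the BeadChip as a block, 0 members were called for LPS in IKKβ-deficient BMDMs, against 3.8% of all genes, and 1 in wt BMDMs, against 6.41% (2.72% up). That member was *Pfkl*. The median log2 change of the members was 0.03 in IKKβ-deficient and 0.0045 in wt BMDMs, beside -0.02 and -0.03 over all genes.

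*Pfkl* encodes the liver-type phosphofructokinase subunit, found also in myeloid cells. It was 790.5, 685 and 863 at 4 h in IKKβ-deficient BMDMs, against 499, 603 and 561 at 0 h. In wt BMDMs it was 1033, 742 and 999 at 4 h, against 459, 580.4 and 520.1 at 0 h. The times did not overlap in either genotype. The log2 change was 0.49 (SE 0.164, adjusted p = 0.633 by limma, 0.105 with the block) in IKKβ-deficient and 0.82 (SE 0.164, adjusted p = 0.17, 0.0226 with the block) in wt BMDMs. On each BeadChip the change was smaller in IKKβ-deficient cells, at 0.67, 0.18 and 0.62, against 1.17, 0.35 and 0.94 in wt, and the difference of the changes of -0.33 was not called (adjusted p = 1). A further *Pfkl* probe that passed the filter had low signals, from 82.1 to 129.5. Its log2 changes with LPS were 0.03 in IKKβ-deficient and 0.13 in wt BMDMs. In the p38 experiment they were -0.10 with SB202190 and 0.28 with DMSO.

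*Slc2a1* was 2853, 2830.4 and 2941 at 4 h in IKKβ-deficient BMDMs, against 644, 1406 and 2030.1 at 0 h. In wt BMDMs it was 3292, 2254 and 3893 at 4 h, against 858, 1190.2 and 2151 at 0 h. All 4 h arrays were above all 0 h arrays of their genotype. The log2 changes were 1.23 (SE 0.43, adjusted p = 0.651 by limma, 0.0642 with the block) in IKKβ-deficient and 1.24 (SE 0.43, adjusted p = 0.51, 0.0521 with the block) in wt BMDMs, so neither passed. On the 3 BeadChips the change was 2.15, 1.01 and 0.53 in IKKβ-deficient, against 1.94, 0.92 and 0.86 in wt. *Slc2a6* was higher at 4 h on every BeadChip too, at 2.66, 0.77 and 0.66 in IKKβ-deficient and 2.45, 0.41 and 0.47 in wt, and was low on BeadChip 1 in all 4 groups.

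**Figure D3:**
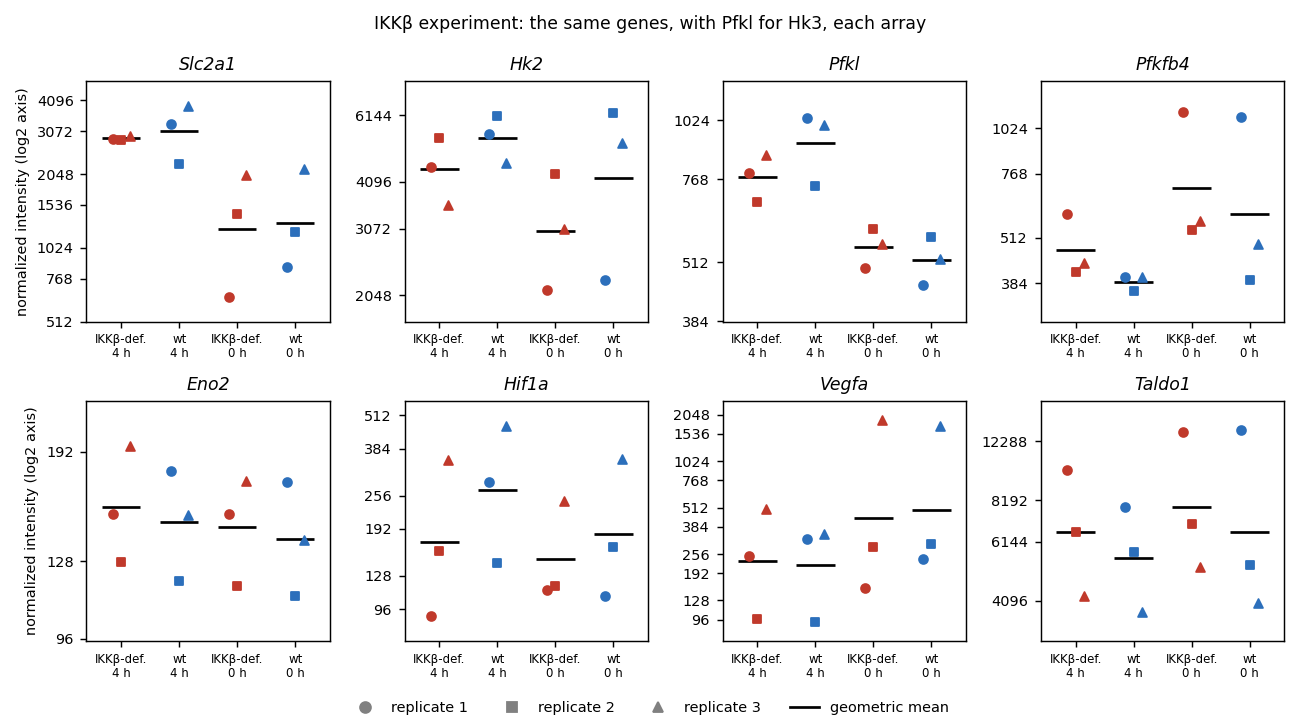
Normalized intensity (log2 axis) of 8 members in the IKKβ experiment, for each array at 4 h and 0 h of LPS in IKKβ-deficient (red) or wt (blue) BMDMs. Symbols give the BeadChip and bars the geometric mean of 3 arrays. *Slc2a1* and *Pfkl* at 4 h lie above 0 h in both genotypes, and *Vegfa* on BeadChip 3 reaches 1885 and 1727 at 0 h.

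*Hif1a* was 90.9, 158 and 347 at 4 h in IKKβ-deficient BMDMs, against 114, 118 and 243 at 0 h. In wt BMDMs it was 289, 143 and 466 at 4 h, against 108, 164 and 353 at 0 h. The times overlapped in both genotypes, and BeadChip 3 was the highest in every group. The log2 changes were 0.21 (SE 0.618) in IKKβ-deficient and 0.54 (SE 0.618) in wt BMDMs, and neither was called.

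*Vegfa* was 249, 96.7 and 499 at 4 h in IKKβ-deficient BMDMs, against 155, 285 and 1885 at 0 h. In wt BMDMs it was 320.3, 93.2 and 346 at 4 h, against 237, 297 and 1727 at 0 h. On BeadChips 2 and 3 the 4 h array was the lower in both genotypes, by log2 values of -1.56 and -1.92 in IKKβ-deficient and -1.67 and -2.32 in wt, while on BeadChip 1 it was the higher, by 0.68 and 0.44. Neither change was called.

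*Hk2* was 4495, 5363 and 3564 at 4 h in IKKβ-deficient BMDMs, against 2113, 4294 and 3069 at 0 h, and 5494, 6143 and 4599 at 4 h in wt, against 2248, 6237 and 5192 at 0 h. *Pfkfb4* was 597, 412 and 438 at 4 h in IKKβ-deficient, against 1134, 539 and 569 at 0 h, and 399, 366 and 401 at 4 h in wt, against 1102, 391 and 492 at 0 h. *Pfkfb4* was thus lower at 4 h on every BeadChip, and *Hk2* higher on every BeadChip in IKKβ-deficient cells and on BeadChip 1 in wt. *Eno2* stayed between 117 and 196 in IKKβ-deficient and between 112 and 178 in wt BMDMs over both times. *Taldo1* was 10114, 6602 and 4241 at 4 h in IKKβ-deficient, against 13150.5, 6964 and 5156 at 0 h, and 7804, 5730.0 and 3794 at 4 h in wt, against 13298, 5242 and 4039 at 0 h, with overlap in both.

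The remaining members on the list of named genes showed overlap between the times in both genotypes. *Hk3* was 3568, 6073 and 4234 at 4 h and 3819, 5299 and 4248 at 0 h in IKKβ-deficient, and 2847, 5123 and 4419.9 at 4 h and 3204, 4503 and 4516 at 0 h in wt. *Ldha* was 10438, 8351 and 5202 at 4 h and 9358, 13052 and 5318 at 0 h in IKKβ-deficient, and 8203, 9271 and 4801 at 4 h and 10475, 9386 and 4282 at 0 h in wt. *Pfkfb3* stayed between 81.8 and 134 and *Slc16a3* between 92.6 and 139.7 over all 12 arrays, near the detection limit. Log2 changes of these genes with LPS lay between -0.17 and 0.26.

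Directions were counted over the 3 BeadChips. With LPS in IKKβ-deficient BMDMs 11 of 29 members moved the same way on all 3, 4 up (*Slc2a1*, *Slc2a6*, *Hk2* and *Pfkl*) and 7 down (*Hk1*, *Pfkfb4*, *Aldoc*, *Tpi1*, *Pdk1*, *Taldo1* and *Tkt*), against 45.6% of all genes. In wt BMDMs 12 did, 7 up (*Slc2a1*, *Slc2a6*, *Hk1*, *Pfkl*, *Pfkfb3*, *Eno2* and *Slc16a3*) and 5 down (*Pfkfb4*, *Aldoc*, *Gapdh*, *Pdk1* and *Egln1*), against 45.6%. Between IKKβ-deficient and wt BMDMs, 9 members differed the same way on all 3 BeadChips at 0 h, against 32.7% of all genes, and 8 at 4 h, against 31.9%. These shares lie near or below the background and are no result about the members.

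Between the genotypes themselves 0 of 29 members were called at 4 h, against 0.0117% of all genes, and 0 at 0 h, against 0%. The LPS response of IKKβ-deficient minus wt BMDMs gave 0 members, against 0%. At an unadjusted p under 0.05 by limma, 0 members and 85 genes passed at 4 h, 0 and 52 at 0 h, and 0 and 29 for the LPS response. With the block these were 2 members, *Vhl* at 0.26 and *Pfkp* at -0.99, and 468 genes at 4 h, 0 and 362 at 0 h, and 1 member, *Hk1* at -0.58, and 240 genes for the LPS response, and none of these members passed the adjusted threshold. At 4 h the log2 differences ran from -0.99 for *Pfkp*, the platelet-type phosphofructokinase subunit, to 0.30 for *Ndrg1*, and at 0 h from -0.70 for *Slc2a6* to 0.33 for *Hk1*. *Pfkp* at 4 h was 309, 1321 and 1545 in IKKβ-deficient, against 2077, 1595 and 1482 in wt, so most of that difference lay on BeadChip 1. The standard errors of the members ran from 0.138 to 1.07 (median 0.338), or from 0.109 to 0.577 (median 0.157) with the block, and at that size missing calls do not show that levels were equal.

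**Figure D4:**
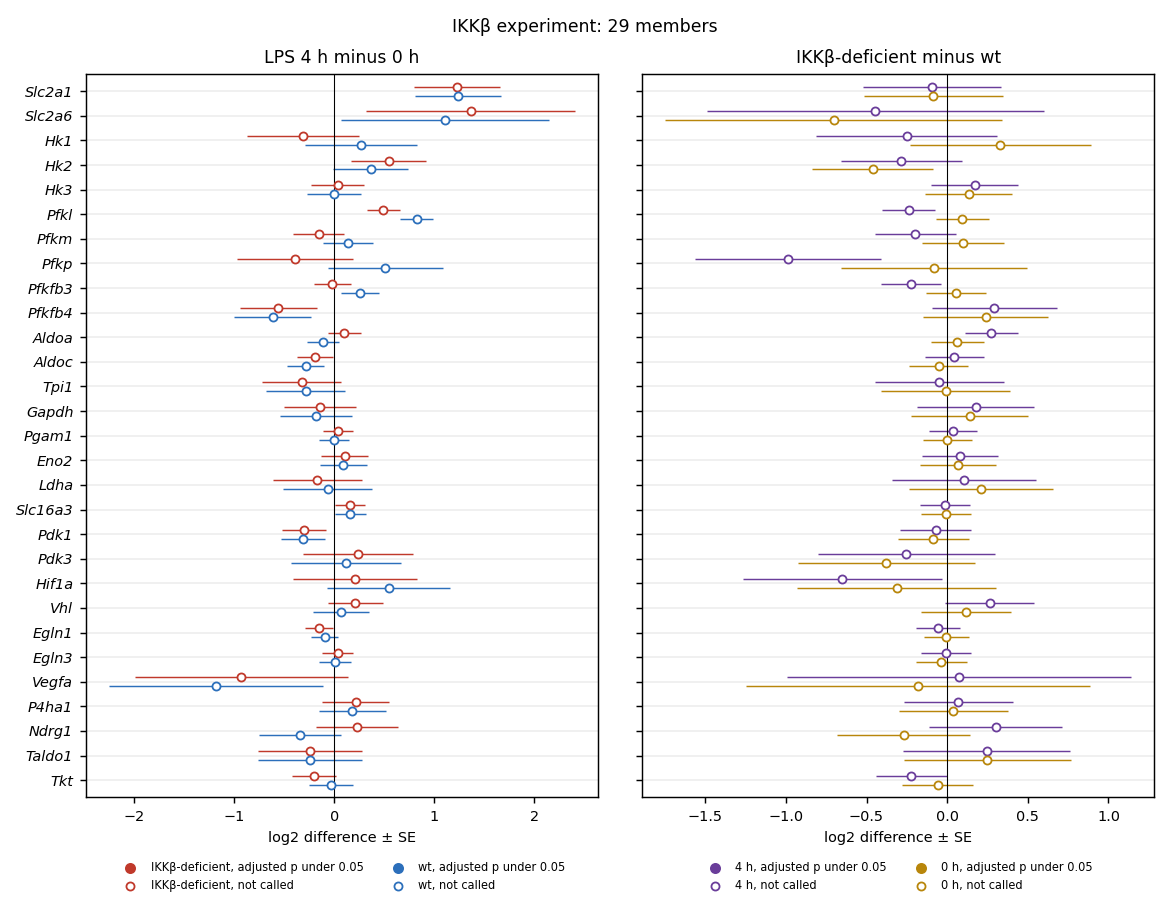
Log2 difference ± SE of the 29 members in the IKKβ experiment, for LPS at 4 h minus 0 h in IKKβ-deficient (red) and wt (blue) BMDMs at left, and for IKKβ-deficient minus wt at 4 h (purple) and 0 h (gold) at right. No point passed an adjusted p under 0.05 in this fit, and *Vegfa* has the widest error, an SE of 1.07.

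Genes of the same pathways outside the set were read for context. Of 8 other glycolysis genes tested in the p38 experiment, *Slc2a3*, the transporter GLUT3, fell with LPS by 1.33 with SB202190 and by 1.08 with DMSO, and the other 7 did not pass. Of 6 other pentose phosphate genes *H6pd* fell by 1.63 with SB202190. Of 6 other pyruvate and lactate genes *Pdp2*, a phosphatase that reactivates pyruvate dehydrogenase, fell by 0.82 with LPS in DMSO and was 0.71 higher with SB202190 than with DMSO at 4 h.

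Of 9 other HIF pathway genes, *Siah2*, a ubiquitin ligase acting on EGLN proteins, rose with LPS by 0.47 with SB202190 and by 0.69 with DMSO, and *Arnt*, the partner of HIF-1α, rose by 0.53 with DMSO. Of 19 other hypoxia targets, *Ccng2* rose by 1.93 with LPS and SB202190, and *Angptl4*, *Bnip3l* and *Hmox1* fell by 1.20, 0.52 and 1.67. *Ddit4*, an inhibitor of mTOR signaling, rose by 1.44 with LPS in DMSO and was lower with SB202190 at 4 h by a log2 difference of -1.68. *Rora* was 1.63 higher with SB202190 at 4 h. These values are log2 differences at an adjusted p under 0.05 by limma.

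In the IKKβ experiment none of these genes passed without the block. With it, *Ddit4* rose by 0.96 in IKKβ-deficient and 1.61 in wt BMDMs, *Pdp2* fell by 0.74 and 0.70 and *Selenbp1* fell by 0.47 and 0.47. *Hmox1* and *Lox* rose by 1.17 and 1.67 and *Pgls* fell by 0.59 in IKKβ-deficient BMDMs. *Slc2a3* and *Bnip3l* fell by 0.55 and 0.91 in wt BMDMs. Among the macrophage markers, *Fcgr1* and *Mertk* fell with LPS by 2.35 and 1.16 with SB202190, and *Mertk* fell by 1.36 with DMSO. Among the neutrophil markers, *S100a8* rose by 2.38 in IKKβ-deficient BMDMs with the block, and *Camp* rose by 0.62 with LPS in DMSO and was at -0.80 with SB202190 against DMSO at 4 h. Summed neutrophil marker signal ran from 3095 to 4575 in IKKβ-deficient and from 2574 to 4169 in wt BMDMs at 4 h, against 944 to 1840.0 and 1014 to 3984 at 0 h. The median log2 change of the 7 neutrophil markers tested was 0.0018 and 0.02, and *S100a8* was the 1 of them called. The part of these markers in the results was not tested.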

How the data were processed

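BeadChips were read with BeadStudio, and the authors deposited for 25697 probes an intensity without normalization and its detection p-value against negative control beads. A second deposited table holds normalized intensity of all 24 arrays, which the methods describe as quantile normalization in Partek. Array medians in it were near 93.1 in the IKKβ and 115 in the p38 experiment. For 4 of its SB202190 columns no deposited intensity column had the same probe order. The normalized values are linear and were taken to log2. Probes were named from the platform annotation (23978 with 1 symbol, 1719 with none). In the p38 experiment detection p-values follow the labels of the intensity columns, which conflict with the normalized ones, so those intensities were not used as an alternative. The brightest probe that passed the filter in an experiment stood for a gene. For *Slc16a3* and *Egln1* this was a different probe in each experiment. Tests used limma 3.58.1 in R 4.3.3 with the data.table package, version 1.17.8, a group-means model of 4 groups within an experiment, empirical Bayes, 2-sided p-values and Benjamini-Hochberg adjustment over all genes tested, at an adjusted p under 0.05. On simulated data 48% of genes changed by 1 log2 unit and 88% by 2 were recovered for LPS in wt BMDMs (8569 genes), and 56% and 95% for LPS in DMSO (9123 genes). The simulation drew independent noise with 1 SD per gene in all groups. The real arrays deviated together by number in the IKKβ experiment and differed in spread between groups in the p38 experiment. These rates thus need not hold for the data, where the same fit called 4 of 8569 genes for LPS in wt BMDMs. The number of arrays limits the precision. Members and gene lists were chosen with earlier results of these data known. Values of every array are given for members called in any comparison without a block and for *Hif1a*, *Slc2a1*, *Hk2*, *Pfkfb3*, *Ldha*, *Slc16a3*, *Vegfa* and *Adm*. Deviations from group means of arrays with the same number correlated at 0.424 to 0.925 in the IKKβ experiment. The labels of the intensity columns tie a number to a BeadChip in both experiments, and the number was also run as a block in both. In the p38 experiment the normalized columns carry other numbers than the intensity columns whose order they have. DMSO replicates 1 and 2 are exchanged at both times, and SB202190 replicate 2 has the order of replicate 3 columns. The p38 block and the omission of a whole replicate may thus join arrays of different BeadChips. Figures used Python 3.11.15, pandas 2.3.3 and matplotlib 3.10.9.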

Additional observations from a re-analysis of the deposited data

Results flagged for a closer look

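The LPS changes of 3 members had opposite signs in the groups compared for all 3 replicate numbers. This held for 1 of 29 members and 1.21% of all genes in the IKKβ experiment, and for 2 of 30 members and 4.14% of all genes in the p38 experiment. *Hk1* was lower at 4 h than at 0 h on every BeadChip in IKKβ-deficient BMDMs (log2 -0.53, -0.12 and -0.29) and higher in wt (0.45, 0.06 and 0.28), a difference of -0.58 (interaction adjusted p = 1 by limma). *Hk3* was higher at 4 h with SB202190 (0.19, 0.35 and 0.29) and lower with DMSO (-0.65, -0.20 and -0.55), a difference of 0.75 (interaction adjusted p = 0.796 by limma). *Egln3*, close to the detection limit, was at 0.12, 0.16 and 0.01 with SB202190 and -0.28, -0.39 and -0.09 with DMSO, a difference of 0.35 (interaction adjusted p = 0.969 by limma). The replicate numbers do not pair the SB202190 arrays with the others. No test for an outlying value was run within groups of 3 arrays.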

How the results depend on the processing

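Of 780 alternative settings over 33 results of single members, 673 kept the direction and the side of the threshold, 62 lost the call, 45 gained it and 0 reversed. Counts of called members are given with the share of all genes called in the same setting. For LPS with SB202190, 7 members were called (10.1%), against 20 with only the 2 groups compared (50.6%), 18 with the methods' t-test after Benjamini-Hochberg (38%), 20 without that adjustment (48.7%), 19 with array weights by group (49.6%) and 0 to 13 without 1 array or replicate. For LPS in DMSO, 2 were called (6.49%), against 0 with only the 2 groups (0%), 0 with the methods' t-test after Benjamini-Hochberg (0%) and 0 to 11 without 1 array or replicate. For SB202190 against DMSO at 4 h, 1 was called (3.27%), against 2 with only the 2 groups (5.79%), 4 with the methods' t-test (20.9%), 3 with array weights (6.28%) and 0 to 3 without 1 array or replicate. At 0 h the methods' t-test called 3 (5.36%), and leaving out arrays gave 0 to 1. Once the SB202190 arrays were averaged to 1 per time, 0 members were called in each of these comparisons, but so were 0 of 9123 genes, and this says nothing about the members. In the IKKβ experiment the methods' t-test called 2 members for LPS in IKKβ-deficient (5.13%) and 2 in wt BMDMs (5.32%), and leaving out arrays, run without the block, gave 0 throughout. The replicate block called 1 member, *Pfkl*, for LPS in wt and changed no other member call there. In the p38 experiment same-numbered DMSO arrays correlated at 0.525 to 0.584 in their deviations and pairs with an SB202190 array at -0.064 to 0.0935, so the number links the DMSO arrays of 4 h and 0 h and not the SB202190 arrays, and the labelled numbers were not taken to pair this experiment as a whole. The replicate block gave 9 calls for LPS with SB202190 (10.7%), 2 for LPS in DMSO (6.46%) and 1 for SB202190 against DMSO at 4 h (3.24%). For LPS with SB202190 it added *Aldoa*, at a log2 change of -0.61, and *Pfkp*, at 0.80. Scaling intensities to the array median moved the median of all genes to -0.17 and of the members to -0.11 for LPS in wt, and to 0.12 and 0.17 for the LPS response of IKKβ-deficient minus wt BMDMs. The causes were not tested. Probes near the detection limit (*Adm*, *Egln1*, *Egln3*, *Pfkfb3* and *Slc16a3*) limit what can be read from them.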
